A study of Mus musculus with 29 samples.

Results

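A set of 251 CpG-dense stretches of the mouse genome carried high DNA methylation in embryonic stem cells (ESCs) grown in serum with LIF (S/L) and low methylation in 2i/L medium. They were selected on measured levels among 65243 autosomal bins of 1 kb that held 3 or more CpGs with at least 5 reads in each of 6 libraries, the 3 of S/L p20 and the 3 of 2i/L p10. A bin was included when it had 10 or more such CpGs, a mean level of 60% or more in S/L p20 and a mean level under 50% in 2i/L p10. The level of a bin is its methylated reads as a percentage of all reads over its CpGs. Since the bins were chosen by their S/L p20 and 2i/L p10 levels, values of these 2 groups are given as description. The tests compare other groups of the same 3 cell lines, but the fit behind them also held these 2 groups, whose libraries entered its shared estimate of the spread. The chosen stretches are called methylated dense bins here.

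The data are 29 libraries of 15 groups from reduced representation bisulfite sequencing (RRBS), an assay of CpGs near the cut sites of a restriction enzyme. Male ESCs of 3 lines (J-34, J-35, J-37) entered a medium at passage 4 and were collected 6 passages later (p10) or 16 passages later (p20). Libraries held 8359802 to 22433006 reads over CpGs, with a median of 167 reads per methylated dense bin and library. The groups were a Mek1/2 double knockout (Mek1/2 DKO, 1 library), J-34 treated with PD or with CHIR for 6 passages (1 library each), a2i/L p10 (1 library, J-34), PKCi/L p10 (1 library, J-35), and a2i/L p20 and PKCi/L p20 (2 libraries each, J-34 and J-35). They further comprised 2i/L p10 and 2i/L p20 (3 libraries each), S/L p10 and S/L p20 (3 libraries each), cultures put back into S/L after 16 passages in 2i/L and collected 3 passages later (p23, 3 libraries) or 10 passages later (p30, 2 libraries), keratinocytes labelled 2i/L (2 libraries, male) and neonatal wild-type keratinocytes (1 library, female). The knockout cells were clonal male induced pluripotent stem cells reprogrammed from Mek1 fl/fl;Mek2-/- fibroblasts with Oct4, Klf4, Sox2 and c-Myc; the floxed Mek1 allele was deleted with Cre and the cells were kept on feeder cells in S/L. The labels give neither the makeup of a2i/L and PKCi/L nor the route from 2i/L culture to keratinocytes, and no control clone of the knockout was analysed here. The p30 library titled J-35 carries the name J-34 in its other labels and was taken by its title. RRBS holds no expression values, so cell identity could not be checked against marker genes.

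As background, methyl groups on CpGs are set by Dnmt3a and Dnmt3b and copied at each DNA replication by Dnmt1 with its partner Uhrf1. The medium 2i/L joins LIF with inhibitors of the kinases Mek1/2 (PD) and Gsk3 (CHIR), and mouse ESCs kept in it are known to lose most of their DNA methylation. Dense clusters of CpGs are usually CpG islands, which stay unmethylated at most active promoters, so heavily methylated dense stretches are the exception.

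That exception was visible in the S/L p20 libraries. Of 15566 autosomal bins with 10 or more CpGs, 14826 (95.2%) lay under 20% and 293 (1.88%) lay at 60% or more. Of those 293, 251 were under 50% in 2i/L p10 and 42 were not. Among 49677 bins of 3 to 9 CpGs, 26137 (52.6%) lay at 60% or more, and 20107 passed both levels. The 2 methylated dense bins nearest the S/L p20 limit had 60.2% and 60.3%, and the 2 bins just below it had 59.9% and 59.7%. The 2 nearest the 2i/L p10 limit had 49.7% and 49.2%, and the 2 just outside it had 50.1% each.

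Few of the methylated dense bins lay at a gene start that could be placed. The files use the build mm9, and gene starts were located by fitting the spacing of CpGs in promoter windows of RefSeq (GRCm38.p6) to the spacing of CpGs in the files, which placed 8153 of 15982 windows with 8 or more CpGs. Windows of 4 genes overlapped a methylated dense bin. Below are a dense window and a sparser window among them, shown because their counted CpGs are inside bins whose levels are described next. Each runs from 250 bases before to 50 bases after the RefSeq start, and the capitals mark the CpGs counted in the bin. Tmem267 lies at chr13:119488223-119488522 (GRCm38.p6, plus strand) and C230014O12Rik at chr2:34107686-34107985 (GRCm38.p6, minus strand).
Tmem267: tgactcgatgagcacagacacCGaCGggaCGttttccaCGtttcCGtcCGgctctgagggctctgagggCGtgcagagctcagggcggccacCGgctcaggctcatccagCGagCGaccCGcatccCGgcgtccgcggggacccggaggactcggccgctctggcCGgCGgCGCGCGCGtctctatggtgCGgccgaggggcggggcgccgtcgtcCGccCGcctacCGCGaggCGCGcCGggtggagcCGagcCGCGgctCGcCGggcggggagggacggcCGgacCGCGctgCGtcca
C230014O12Rik: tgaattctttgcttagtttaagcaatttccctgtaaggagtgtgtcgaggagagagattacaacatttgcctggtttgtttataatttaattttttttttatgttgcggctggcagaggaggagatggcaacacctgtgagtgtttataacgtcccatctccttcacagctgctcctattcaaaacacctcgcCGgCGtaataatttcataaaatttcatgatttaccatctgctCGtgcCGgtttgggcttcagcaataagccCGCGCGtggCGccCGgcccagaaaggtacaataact

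All 50 CpGs of the Tmem267 window matched a CpG of the files, and 35 of them were counted in the bin chr13:120277051-120277915 (mm9), which with 46 CpGs was the densest of the 251. The window of 3110070M22Rik runs the other way over the same bin. In the C230014O12Rik window, 10 of 13 CpGs matched and 9 were counted in the bin chr2:33963100-33963312 (mm9, 10 CpGs). The fourth window, of the vomeronasal receptor gene Vmn2r29, shared 2 counted CpGs with the bin chr7:7230392-7230962 (mm9, 23 CpGs). CG was the only motif searched, and 15982 of the 32851 RefSeq windows hold it 8 or more times.

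In the Tmem267 bin the level in the 2i/L p20 libraries was 25.4% in J-34, 26.4% in J-35 and 14.5% in J-37, against 66.2%, 68.0% and 64.7% in S/L p10 of the same lines. After 3 passages back in S/L it was 57.1%, 56.9% and 47.5% in the same line order. The 2i/L p20 libraries were the lowest and did not overlap either of the other groups, and the p23 libraries all lay below those of S/L p10. The level was 6.07% of 428 reads (95% Wilson interval 4.18 to 8.75) in the Mek1/2 DKO cells and 40.9% (38.8 to 43.0) in PD. Its CpGs also differed most among themselves, with a standard deviation (SD) of 28.1 percentage points over CpGs in S/L p10. Its median depth was 32.4 reads per CpG, above the usual depth of 15.5 reads per CpG in dense bins, and whether reads from a second copy of the sequence contribute was not tested.

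In the C230014O12Rik bin, 2i/L p20 libraries had 40.7%, 25.9% and 21.2% in J-34, J-35 and J-37, against 70.0%, 74.1% and 71.2% in S/L p10. The p23 libraries had 69.8%, 69.9% and 65.8%, so the returned cells were near the serum level, and all were above the 2i/L p20 libraries. Both the difference of 2i/L p20 from S/L p10 (log2 of the methylated-to-unmethylated odds -2.61, SE 0.43, limma adjusted p = 3.07e-06) and that of p23 from 2i/L p20 (2.39, SE 0.43, adjusted p = 1.27e-05) passed the test. The difference of p23 from S/L p10 did not (-0.21, SE 0.43, adjusted p = 0.873).

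Over all methylated dense bins, methylation was low in the Mek1/2 DKO, PD and 2i/L libraries and high in the other groups. For group values, 250 of the 251 bins with 20 or more reads in every one of the 29 libraries were averaged; the bin left out, chr1:36606634-36606945, had 16 reads in 1 library. The mean was 20.7% in Mek1/2 DKO, 33.2% in PD, 32.2% ± 0.497 (SD, n = 3) in 2i/L p10 and 26.3% ± 9.27 (n = 3) in 2i/L p20. It was 80.8% in CHIR, 70.9% in a2i/L p10, 80.2% in PKCi/L p10, 85.0% ± 0.983 (n = 2) in a2i/L p20 and 83.8% ± 1.96 (n = 2) in PKCi/L p20. Serum cells had 81.8% ± 0.575 in S/L p10 and 74.7% ± 0.686 in S/L p20 (n = 3 each). All 251 bins had a mean of 66.2% or more in S/L p10, which the choice of bins had not used.

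**Figure D1:**
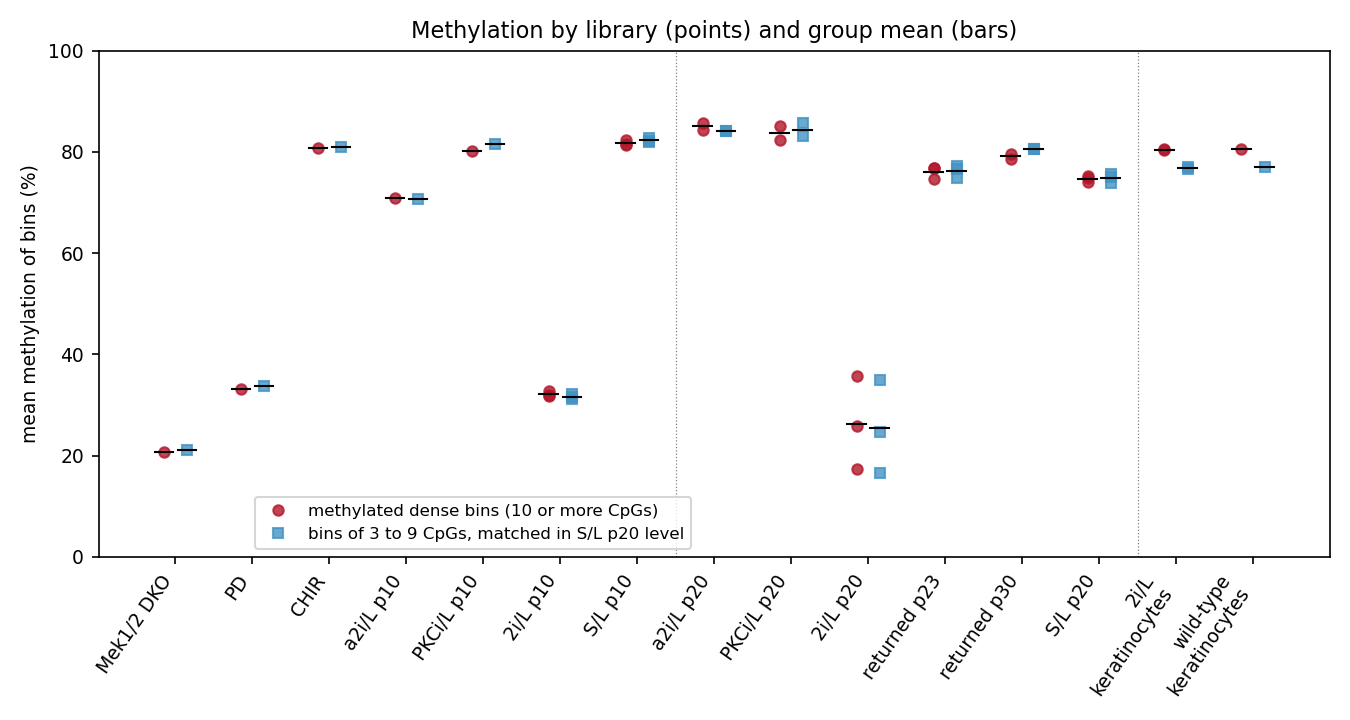
Mean methylation (percent) of the methylated dense bins (circles, 250 bins) and of bins of 3 to 9 CpGs matched in S/L p20 level (squares) in each of the 29 libraries; short bars are group means and dotted lines separate p10 and single-compound cells, p20 to p30 cells, and keratinocytes. The Mek1/2 DKO, PD and 2i/L libraries lie between 17.3% and 35.8% in the dense bins, and the 3 lines spread widely in 2i/L p20.

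The 3 lines spread most in 2i/L p20, where the mean was 35.8% in J-34, 25.8% in J-35 and 17.3% in J-37. At p10 the same lines had 32.0%, 31.7% and 32.7% in 2i/L. The order J-34, J-35, J-37 from high to low held in 217 of the 250 bins, and J-34 lay above J-37 in all 250. Among 9329 bins of 3 to 9 CpGs passing the same levels, that order held in 72.8%. In J-34 the p20 mean was above the p10 mean, whereas in J-35 and J-37 it was below. The p10 libraries and the p20 libraries also differed in which CpGs they covered, with shared CpGs making up 0.665 to 0.797 of the union between these sets against 0.767 to 0.863 within the p10 set, so passage and coverage set cannot be told apart.

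In the libraries the choice had not used, every methylated dense bin was lower in 2i/L. In 2i/L p20 against S/L p10, all 251 were called lower (limma adjusted p under 0.05 and at least 20 points), where 50.7% of all 53643 tested bins were. The median difference was -55.3 points in the methylated dense bins and -21.8 points over all tested bins. Those include many unmethylated ones: of all bins, 14826 with 10 or more CpGs and 13703 with 3 to 9 lay under 20% in S/L p20. Every 2i/L p20 library was below every S/L p10 library in all 250 bins followed in all libraries, against 55.1% of all bins and 100% of the bins of 3 to 9 CpGs passing the same levels.

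The share of the serum level that was lost was close to that in sparser DNA. Within lines, the loss was 1 minus the level in 2i/L p20 divided by that in S/L p10. The methylated dense bins lost 56.1% in J-34, 68.7% in J-35 and 78.7% in J-37, a mean of 67.8% ± 11.4 (SD over 3 lines). Bins of 3 to 9 CpGs, weighted to the same distribution of S/L p20 levels, lost 57.3%, 70.2% and 79.8%, a mean of 69.1% ± 11.3. The difference within lines was -1.25 ± 0.222 points (SD, n = 3 lines), lower in the dense bins in 3 of 3 lines, and is far smaller than the spread between lines. Without asking for a level in 2i/L p10 it was -0.691 ± 0.378 points. Against S/L p20, which chose the bins and shares the coverage set of 2i/L p20, the loss was 64.8% in the dense bins and 66.0% in the matched bins. Since the bins were chosen with results known, no test was made of these differences.

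**Figure D2:**
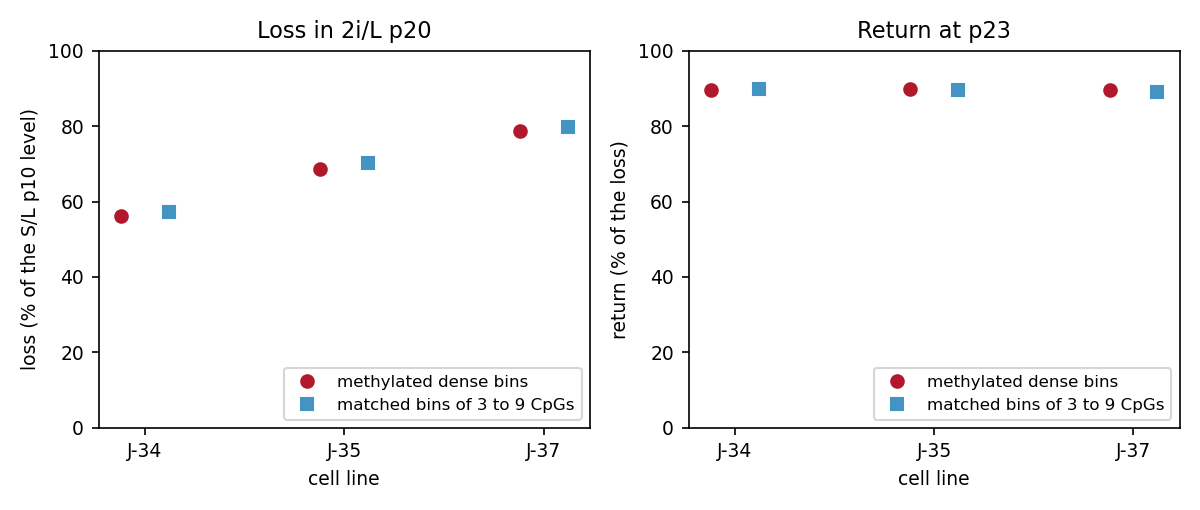
Left, the share of the S/L p10 level lost in 2i/L p20 (percent), and right, the share of that loss regained at p23 (percent), by line; circles are methylated dense bins and squares are matched bins of 3 to 9 CpGs. Loss runs from 56.1% to 78.7% over lines in the dense bins, return lies near 90% in every line, and circles and squares nearly coincide.

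The loss was seen at nearly every single CpG. Of 2912 CpGs with 15 or more reads summed over 2i/L p20, 34.6% were under 20% and 1.03% were at 60% or more. In S/L p10, 94.1% of 2862 CpGs were at 60% or more and 0.349% were under 20%. The median SD over the CpGs of a bin was 10.8 points in 2i/L p20 and 9.05 points in S/L p10. CpGs of a bin share reads and are not replicates.

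The depth of the loss differed between bins. In 2i/L p20 the means of the 251 bins ran from 5.84% to 40.8% with a median of 26.1%. The 5 lowest lay nearest, among placed starts, to Lztr1, Rfc1, Slc7a1, Ung and Ccdc40. The bin chr16:17502321-17502691, 6.80 kb before the start of Lztr1, an adaptor protein known to limit Ras, had 7.74%, 7.35% and 2.44% in 2i/L p20 of J-34, J-35 and J-37, against 69.0%, 71.7% and 75.6% in S/L p10. The bin chr5:65739679-65739924, 12.9 kb before the start of Rfc1, the large subunit of the clamp loader of DNA replication, had 6.76%, 8.56% and 5.88% in 2i/L p20, against 69.2%, 75.8% and 69.9% in S/L p10. In both bins the 2i/L p20 libraries were all under 9% and far from serum. Both were also low in PD, at 17.5% and 6.53%, and intermediate in a2i/L p10, at 34.1% in each.

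The 5 highest bins in 2i/L p20 kept more, and the lines stood further apart there in percentage points. Levels near the floor leave the 5 lowest bins less room for such a spread. The bin chr1:91040349-91040875 (nearest placed start Sh3bp4) had 56.1%, 38.4% and 27.2% in J-34, J-35 and J-37 in 2i/L p20, against 87.3%, 91.7% and 91.9% in S/L p10. The bin chr9:119926412-119926967 (Gm33800) had 58.6%, 42.5% and 21.2% in 2i/L p20, against 87.9%, 82.9% and 94.6% in S/L p10. The other three lay nearest to Nphp4, Slc4a2 and Zcwpw2. Across the 251 bins the 2i/L p20 level ran with the S/L p10 level (Spearman 0.57), with the PD level (0.72) and with the Mek1/2 DKO level (0.65); these are descriptions over bins that share libraries, depth and base composition.

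**Figure D3:**
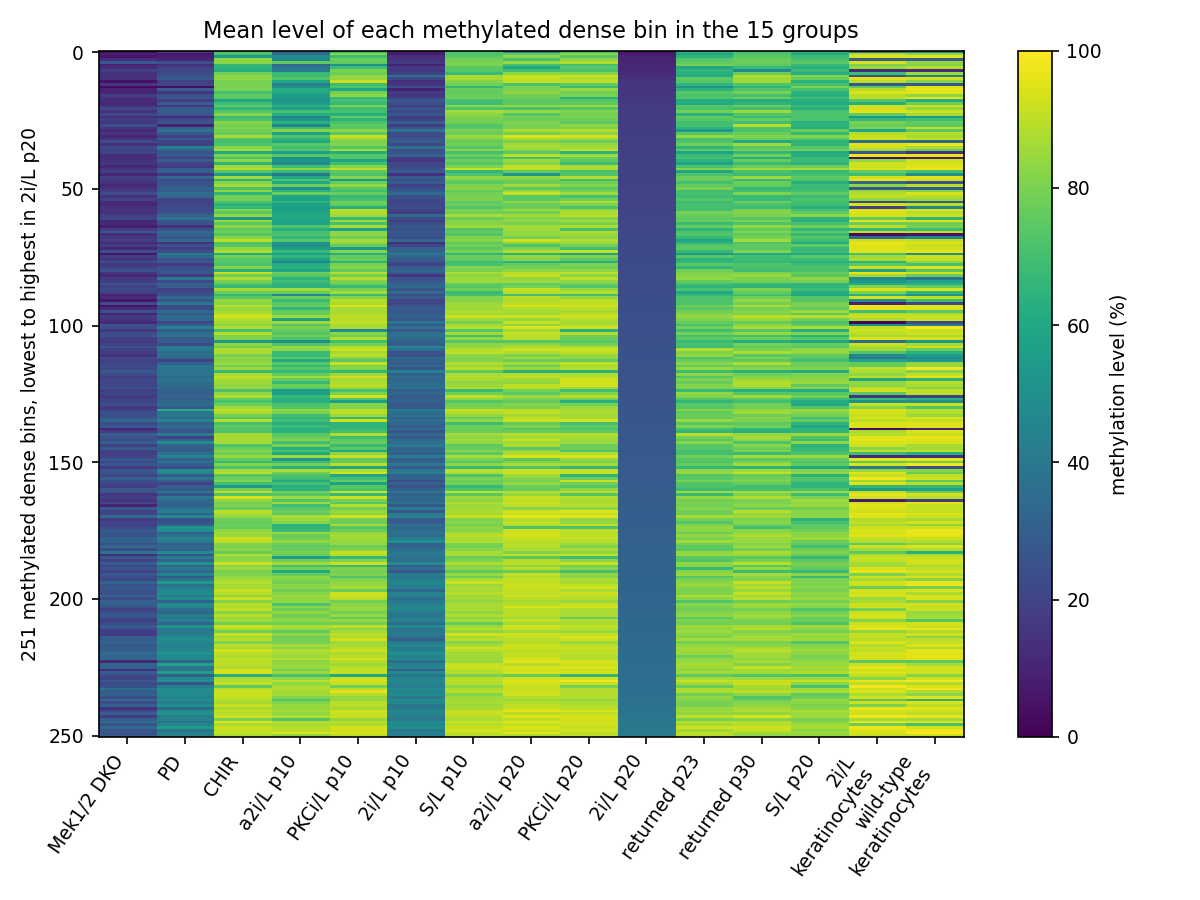
Mean methylation (colour, 0 to 100%) of each of the 251 methylated dense bins (rows, sorted by the mean in 2i/L p20) in the 15 groups (columns). The dark columns are Mek1/2 DKO, PD, 2i/L p10 and 2i/L p20, and single dark rows in the 2 keratinocyte columns are bins low in those cells.

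The single compounds PD and CHIR differed in these bins. PD lay below CHIR in 250 of 250 bins, as in 100% of the bins of 3 to 9 CpGs passing the same levels. PD also lay below every S/L p10 library in all 250, as in 100% of those bins of 3 to 9 CpGs. The share was 62.9% of all 42103 bins with enough reads in every library. CHIR lay within the range of the S/L p10 libraries in 108 of 250 bins (43.2%), against 46.6% of those bins of 3 to 9 CpGs. It lay below all S/L p10 libraries in 78 (31.2%), against 29.4% of those bins and 26.5% of all bins. Relative to the S/L p10 mean, the loss was 59.4% in PD, 1.19% in CHIR and 60.7% in 2i/L p10, the last a group that chose the bins. Matched bins of 3 to 9 CpGs lost 59.0% in PD and 1.52% in CHIR. With 1 library each, these comparisons have no replicate check.

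The Mek1/2 DKO cells were the lowest of the unreplicated groups. Their loss relative to S/L p10 was 74.7% in the methylated dense bins and 74.4% in the matched bins of 3 to 9 CpGs. They lay below PD in 237 of 250 bins (94.8%), near the 92.7% of bins of 3 to 9 CpGs passing the same levels. They lay below every S/L p10 library in all 250, as in 100% of those bins of 3 to 9 CpGs, against 63.9% of all bins. All 251 bins were under 50% and the highest reached 38.8%. These cells were reprogrammed from fibroblasts and are another line, so genotype and origin cannot be told apart.

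The other inhibitor media left the bins methylated. In a2i/L p20 against 2i/L p20, 251 of 251 were called higher, against 50.7% of all bins, with a median of 58.8 points; none was called lower (0.00186% of all bins), nor at an unadjusted p under 0.05. In PKCi/L p20 against 2i/L p20, 251 of 251 were called higher, again against 50.7%, with a median of 58.2 points; none was called lower (0.00373% of all bins), nor at an unadjusted p under 0.05. The quasi-binomial model gave the same counts for both. Over all tested bins, many of them unmethylated, both medians were 22.1 points. Matched bins of 3 to 9 CpGs had a mean of 25.4% in 2i/L p20. Their mean was 84.1% with a2i/L at p20 and 84.4% with PKCi/L. The methylated dense bins had 26.3%, 85.0% and 83.8% in the same order, so the difference was close to that in sparser DNA. The 2 comparisons share the 2i/L p20 libraries. Their libraries and those of 2i/L p20 belong to different coverage sets, so medium and set cannot be told apart.

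Between PKCi/L p20 and a2i/L p20 no methylated dense bin was called by limma, where 0.082% of all bins were called higher and 0.0634% lower. At an unadjusted p under 0.05, 4 were higher and 7 lower, together 4.38%, against 9.67% of all bins in either direction, and a quasi-binomial model called 1 higher and 1 lower, against 0.552% and 0.574% of all bins. The median difference was -1.02 points in the methylated dense bins. At p10, a2i/L stood lower than PKCi/L, with 70.9% against 80.2% in 1 library each from different lines. The a2i/L p10 library lay below every S/L p10 library in 197 of 250 bins (78.8%), against 45.6% of all bins. The share was 70.0% in the bins of 3 to 9 CpGs passing the same levels. The loss in a2i/L p10 relative to S/L p10 was 13.3%, against 14.2% in the matched bins of 3 to 9 CpGs. The PKCi/L p10 library lay below every S/L p10 library in 97 bins (38.8%), against 25.6% of all bins. The share was 25.1% in those bins of 3 to 9 CpGs. The loss in PKCi/L p10 was 1.90%, against 0.804% in the matched bins.

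Methylation of the dense bins was largely back after 3 passages in S/L. The p23 mean was 76.8% in J-34, 76.8% in J-35 and 74.7% in J-37, against 35.8%, 25.8% and 17.3% in 2i/L p20. All 251 bins were called higher in p23 than in 2i/L p20, where 50.9% of all tested bins were, with a median of 49.8 points against 21.8 points over all bins. Every p23 library was above every 2i/L p20 library in 250 of 250 bins, against 59.2% of all bins and 99.8% of the bins of 3 to 9 CpGs passing the same levels. The share of the loss that had returned, with S/L p10 as the serum level, was 89.6% in J-34, 90.0% in J-35 and 89.6% in J-37, a mean of 89.8% ± 0.202 (SD over 3 lines). That serum level comes from an earlier passage and another coverage set than p23. Matched bins of 3 to 9 CpGs had 89.8%, 89.5% and 89.0%, a mean of 89.4% ± 0.402. The difference was 0.347 ± 0.429 points, positive in 2 of 3 lines and smaller than its SD. Its sign turned without asking for a level in 2i/L p10, at -0.115 ± 0.359 points, and with 10 or more reads per CpG, at -3.36 ± 1.04 points over 16 dense bins.

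The 5 largest gains at p23 were between 62.8 and 68.5 points. The bin chr11:85613392-85613611 (nearest placed start Brip1, 401 kb away) had 80.5%, 81.7% and 76.5% in p23 of J-34, J-35 and J-37, against 15.3%, 8.09% and 9.80% in 2i/L p20. Its S/L p10 libraries had 82.8%, 80.7% and 76.3%, so the p23 libraries overlapped them. The bin chr7:38265608-38265765 (Zfp536) had 81.4%, 90.0% and 82.7% in p23, against 27.2%, 14.1% and 14.1% in 2i/L p20. It too overlapped its S/L p10 libraries, which had 81.6%, 86.5% and 86.2%. The other three lay nearest to Ung, Yes1 and Ccdc40, with gains of 64.9, 63.3 and 62.8 points.

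Most methylated dense bins were a little below S/L p10 at p23. The p23 mean was below the S/L p10 mean in 220 of 250 bins (88.0%), and in 83.5% of the bins of 3 to 9 CpGs passing the same levels. In 123 bins (49.2%) every p23 library was below every S/L p10 library, against 13.2% of all bins and 30.8% of those bins of 3 to 9 CpGs, which carry fewer reads each. In 2 bins (0.8%) every p23 library was above, against 7.95% of all bins and 1.18% of those bins of 3 to 9 CpGs. Matched bins of 3 to 9 CpGs had a mean of 82.3% in S/L p10 and 76.3% in p23. The methylated dense bins had 81.8% and 76.1%. The median difference was -5.67 points in the methylated dense bins and -0.203 points over all bins, many of them unmethylated. Only 1 of 251 bins was called lower in p23 than in S/L p10 by limma (0.398%), near the 0.539% called over all bins, and none was called higher, where 0.041% were. At an unadjusted limma p under 0.05, 36 were lower and 0 higher, together 14.3%, near the 13.6% of all bins in either direction. The quasi-binomial model called 3 bins lower and 0 higher, against 1.39% and 0.177% of all bins. At its unadjusted p under 0.05, 40.6% of the methylated dense bins were lower and 0 higher, against 16.4% of all bins in either direction. Whether the share exceeded that of all bins thus depended on the model. Against S/L p20, which chose the bins and shares the coverage set of p23, the returned cells stood slightly higher, at 76.1% ± 1.20 (SD, n = 3) against 74.7% ± 0.686 for S/L p20 (n = 3).

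**Figure D4:**
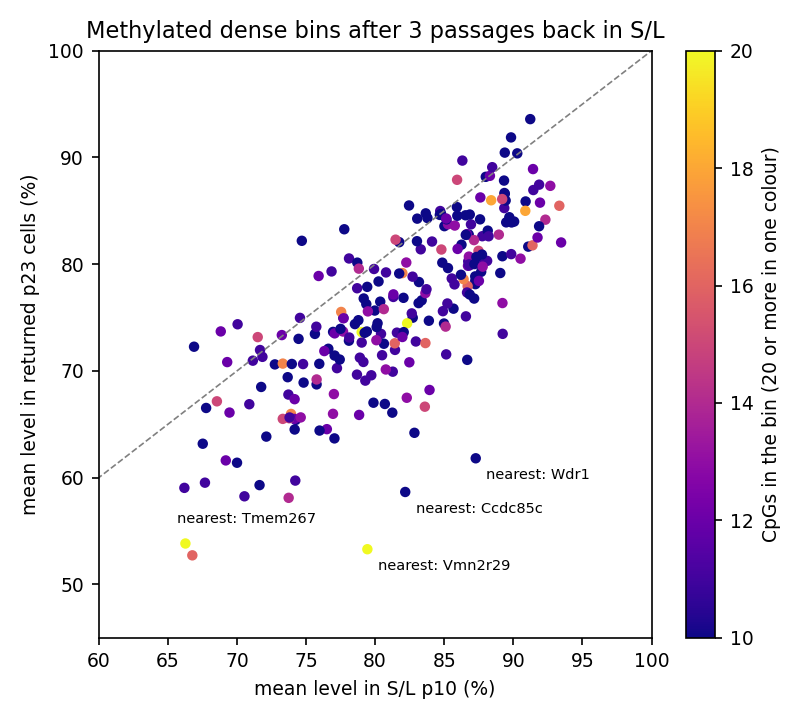
Each point is a methylated dense bin, with its mean level in S/L p10 (horizontal, percent, n = 3) and in p23 (vertical, percent, n = 3), coloured by its number of CpGs; the dashed line marks equal levels. Most points lie below the line, and the bins nearest Vmn2r29, Wdr1, Ccdc85c and Tmem267 are named.

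A few bins returned less. The bin called lower at p23 was chr5:38868507-38868783, with 84.3 kb to the nearest placed start, that of Wdr1, which helps take actin filaments apart. It had 55.9%, 67.1% and 62.4% in p23 of J-34, J-35 and J-37, against 83.8%, 88.8% and 89.2% in S/L p10. The groups did not overlap, and the difference was -25.5 points (log2 odds -2.03, SE 0.49, limma adjusted p = 0.039). With a pseudocount of 0.5, without J-34 or J-37 of S/L p10, or without any 1 of the 3 p23 libraries, 0 bins were called.

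The bin with the lowest p23 level relative to S/L p10 was the one that overlaps the promoter window of Vmn2r29. That overlap holds 2 of its 23 CpGs, and the levels given are those of the whole bin. It had 57.8%, 56.7% and 45.5% in p23, against 31.1%, 17.1% and 6.60% in 2i/L p20 and 81.6%, 79.2% and 77.6% in S/L p10. The p23 libraries lay between the other groups without overlap, at 67.1% of the S/L p10 mean, and the difference from S/L p10 missed the threshold (adjusted p = 0.0879). The p30 libraries, with 77.6% for J-35 and 66.6% for J-37, were above all p23 libraries. This bin had 24.5 reads per CpG, and the vomeronasal receptor genes form a family of similar copies, and whether copies share reads here was not tested.

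Bins nearest Ccdc85c, Sema4c and Nacc2 completed the 5 lowest. The Ccdc85c bin, chr12:109480739-109480955, had 61.2%, 58.5% and 56.3% in p23, against 28.0%, 23.6% and 14.0% in 2i/L p20 and 83.2%, 74.5% and 88.8% in S/L p10. It was the single bin called in p30 against p23 by limma, with 84.7% and 87.9% in p30 (log2 odds 2.08, SE 0.49, adjusted p = 0.044, 0.332% of all bins called higher). With cell line as a replicate block, or without any 1 of the p30 or p23 libraries, 0 bins were called. Sema4c, whose product is a semaphorin, and Nacc2 had bins at 77.5% and 78.8% of the S/L p10 mean at p23. The 5 smallest gains from 2i/L p20 to p23 were those of the Tmem267, Tsen54, Vmn2r29, Ttc7 and Ccdc85c bins, between 31.7 and 36.8 points.

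The p30 cells stood slightly above the p23 cells. The mean was 78.6% and 79.6% in the 2 p30 libraries, against 74.7% to 76.8% in the 3 p23 libraries. The p30 mean was above the p23 mean in 180 of 250 bins (72.0%), and in 72.3% of the bins of 3 to 9 CpGs. Matched bins of 3 to 9 CpGs had a mean of 76.3% in p23 and 80.6% in p30. The methylated dense bins had 76.1% and 79.1%. The median difference was 3.34 points in the methylated dense bins and 0.382 points over all bins, many of them unmethylated. No bin was called lower by limma, where 0.0298% of all bins were. At an unadjusted limma p under 0.05, 11 were higher and 3 lower, together 5.58%, against 13.0% of all bins in either direction. The quasi-binomial model called 2 bins higher and 0 lower, against 1.25% and 0.14% of all bins. At its unadjusted p under 0.05, 42 were higher and 11 lower, together 21.1%, against 14.3% of all bins. The share relative to all bins thus depended on the model. The p30 libraries belong to another coverage set than p23, so passages after the return and coverage set cannot be told apart.

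Among the methylated dense bins, those with more CpGs had slightly lower returns. The order did not extend to sparser DNA, since matched bins of 3 to 9 CpGs had returned 89.4% ± 0.402. The 27 bins with 15 or more CpGs had returned 87.2% ± 1.22 of their loss at p23 (SD over 3 lines). They include the deeply read Tmem267 bin (46 CpGs) and Vmn2r29 bin (23 CpGs), both among the 5 smallest gains, and the class without them was not tested. The 53 bins of 12 to 14 CpGs had returned 88.6% ± 1.62, the 63 of 11 CpGs 89.8% ± 0.987 and the 107 of 10 CpGs 90.9% ± 0.278. The losses of the same classes were 66.0%, 67.2%, 68.9% and 68.0%, each with an SD of 10.3 to 12.8 over lines. Over the 251 bins, the difference of p23 from S/L p10 ran weakly against the number of CpGs (Spearman -0.13), which is a description over bins and no test.

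Other bins with many CpGs stood nearer to their S/L p10 levels at p23. The bin chr10:86371574-86371936 (21 CpGs, nearest placed start Nt5dc3) had 73.5%, 72.4% and 75.1% in p23, against 26.3%, 26.7% and 13.1% in 2i/L p20 and 78.6%, 79.2% and 79.2% in S/L p10. The bin chr4:117898452-117898869 (18 CpGs, Ptprf, a receptor tyrosine phosphatase) had 88.8%, 84.6% and 84.5% in p23, against 52.8%, 30.6% and 25.4% in 2i/L p20. Its S/L p10 libraries had 87.5%, 91.0% and 86.7%, overlapping p23. A bin nearest Ficd (20 CpGs) stood at 90.5% of its S/L p10 mean at p23.

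By position, methylated dense bins were scattered over all 19 autosomes, with the most (37) on chromosome 4, and 8 lay beside another one. Their median distance to a placed gene start was 42.8 kb, against 64.6 kb for bins of 3 to 9 CpGs passing the same levels. Within 20 kb of a placed start lay 31.2% against 21.7%, and within 1 kb lay 3 bins. Of the 79 within 20 kb, 50 (63.3%) were downstream of the start, a share of 61.2% in the bins of 3 to 9 CpGs. Because fewer than all starts could be placed, these distances are upper limits. Of the germline gene list (37 genes, 11 with a placed start) and the imprinted gene list (23 genes, 5 placed), both classes known for methylated promoters or control regions, no gene had a start overlapping a methylated dense bin or nearest to one within 5 kb.

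The bins were also methylated in keratinocytes, with a mean of 80.5% ± 0.0963 (n = 2) in the 2i/L keratinocytes and 80.7% in the wild-type keratinocytes. Matched bins of 3 to 9 CpGs had 76.8% ± 0.203 and 77.0% in these groups. A level of 80% or more in wild-type keratinocytes was seen in 179 of 250 bins (71.6%), against 64.9% of the bins of 3 to 9 CpGs. At the other end, 15 bins (6.0%) were under 30%, and 12 of them (4.8%) were under 30% in all 3 keratinocyte libraries. The shares were close to those of the bins of 3 to 9 CpGs, 5.83% and 4.32%. The 15 averaged 16.9% ± 0.638 in the 2i/L keratinocytes and 18.7% in the wild-type keratinocytes, against 78.2% ± 0.960 in S/L p10.

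Among these 15, picked out after their values were seen, the bin chr5:140031139-140031599 lay 11.5 kb downstream of the start of Uncx, a homeobox gene. It had 4.76% and 2.63% in the 2i/L keratinocytes and 9.57% in the wild-type keratinocytes, against 74.4%, 76.2% and 81.7% in S/L p10. The bin chr17:48194267-48194629 (nearest placed start Foxp4, a forkhead factor, 133 kb away) had 5.49% and 4.00% in the 2i/L keratinocytes and 9.76% in the wild-type keratinocytes. The wild-type keratinocyte library came from a female and the 2i/L keratinocytes are labelled male.

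**Figure D5:**
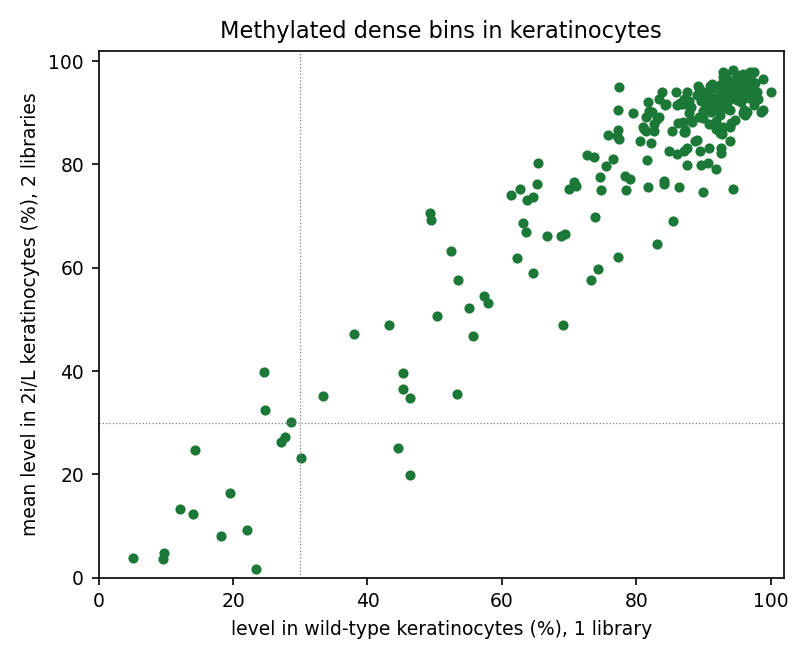
Each point is a methylated dense bin, with its level in the wild-type keratinocytes (horizontal, percent, 1 library) and its mean in the 2i/L keratinocytes (vertical, percent, 2 libraries); dotted lines mark 30%. Most bins lie in the upper right corner near 90%, and 15 lie left of the 30% line.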

How the data were processed

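RRBS was made from ESCs, induced pluripotent stem cells and keratinocytes, and the titles gave the 15 groups of 29 libraries. Sets of 12 barcoded reactions were pooled ahead of bisulfite conversion, per the labels' protocols. The authors deposited a CpG list for each library. BSMAP 2.89 and mm9 are named, per the submitters' processing notes; no filter or conversion rate is given in the sources used here. Each CpG carries methylated over all reads as 1 text field and, also in the deposited files, a score that equals 1000 times that share, rounded down. Only the text field was used. Reads were not marked by molecular identifiers, so intervals cover counting error only.

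Reads were summed per library over CpGs with 5 or more reads in each S/L p20 and 2i/L p10 library, in fixed 1000 bp bins of the autosomes; printed coordinates span the counted CpGs of a bin and are 1-based. The test was limma 3.58.1 (R 4.3.3) on log2((methylated + 1)/(unmethylated + 1)), two-sided, fitted to 21 libraries of 8 replicated ESC groups over 53643 bins with 20 or more reads in each. The 8 groups include S/L p20 and 2i/L p10. P-values were adjusted by Benjamini-Hochberg over all of them, and a call also needed 20 points. The text field was not recorded as a count column, so count tools were not used. Bins of 3 to 9 CpGs were weighted over 5-point strata of the S/L p20 level. Tests were also run on simulated data. Python 3.11.15, numpy 2.4.6 and pandas 2.3.3 were used.

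Replicates are cell lines, so numbers pair samples by line; deviations of the same line in different groups correlated with a median of 0.0037 (64 pairs, -0.099 to 0.0656). Nothing states separate cultures beyond lines. No mm9 genome or annotation was used, so gene names come from RefSeq promoter windows placed by CpG spacing; all 8153 placed windows fell on the chromosome the table names. The members, lists and tests were chosen with earlier results of these data known. Regions named are the 5 with most CpGs, the 5 largest and smallest gains at p23, the 5 highest and lowest in 2i/L p20, the 5 lowest at p23 relative to S/L p10, the threshold neighbours and promoter matches. Alternatives were another model, a block for line, pseudocount 0.5, other read and CpG minimums, fits on the compared groups alone, no matching and leaving out libraries.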

Additional observations from a re-analysis of the deposited data

How the results depend on the processing

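Calls of 2i/L p20 against S/L p10, p23 against 2i/L p20, and a2i/L p20 and PKCi/L p20 against 2i/L p20 covered 100% of the methylated dense bins tested under every alternative run, leaving out single libraries included. For p23 against S/L p10 the share called lower, 0.398%, became 1.20% in the quasi-binomial model and 0% with a pseudocount of 0.5, with 50 or more reads per bin, in a fit of the compared groups alone, with 10 or more reads per CpG and with CpGs read in each of 21 libraries; leaving out libraries gave 0% to 0.398%, with the call lost without J-34 or J-37 of S/L p10 or any p23 library. For p30 against p23 the share of 0.398% became 0.797% in the quasi-binomial model and 0% with cell line as a replicate block and under all the other alternatives, leaving out libraries giving 0% throughout. For PKCi/L p20 against a2i/L p20 the quasi-binomial model gave 0.797% in place of 0%. The block changed no other call.

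The rule gave 443 bins with 3 or more reads per CpG, 16 with 10 or more, 741 with 8 or more CpGs and 27 with 15 or more, against 251; leaving out libraries gave 250 to 256. The loss difference of -1.25 points moved to -0.691 without a 2i/L p10 limit, -2.05 with 10 or more reads per CpG (16 bins), -0.203 without matching and -1.69 with CpGs read in 21 libraries, and to -1.36 to -1.14 on leaving out lines. The return difference of 0.347 points turned to -0.115 without a 2i/L p10 limit, -3.36 with 10 or more reads per CpG, -0.0617 with S/L p20 as the serum level and -0.379 with CpGs read in 21 libraries, and was 0.189 to 0.591 on leaving out lines; the cause was not tested. Without 3 bins above 30 reads per CpG, an alternative chosen after seeing the data, the differences were -1.29 and 0.45 points. At 167 reads per bin and library a single level carries a few points of counting error.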

Other observations

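The 42 dense bins that kept 50% or more in 2i/L p10 were read in the same way, 39 of them with enough reads in every library. Their mean was 41.5% ± 11.7 (SD, n = 3) in 2i/L p20, against 91.0% ± 0.488 (n = 3) in S/L p10. In p23 it was 84.4% ± 1.88 (n = 3) and in p30 87.1% ± 0.0787 (n = 2). It was 36.5% in Mek1/2 DKO, 56.1% in PD and 91.3% in CHIR, 1 library each. Their keratinocyte levels were 91.4% ± 0.337 (n = 2) in the 2i/L keratinocytes and 91.9% in the wild-type keratinocytes. These bins were split from the others by their level in 2i/L p10, so the comparison is a description.

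The bin chr7:89920062-89920540 (mm9, 15 CpGs), chosen after its depth was seen, had a median of 180.4 reads per CpG, the highest among the methylated dense bins. Its levels were 27.5%, 19.4% and 9.49% in 2i/L p20 of J-34, J-35 and J-37, against 74.0%, 73.4% and 73.9% in S/L p10.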
